A study of Mus musculus with 18 samples.

Results

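Gene expression 40 h after a dexamethasone shock was compared with that 26 h after it in wild type mouse embryonic fibroblasts, connective tissue cells grown from embryos. The comparison set 3 arrays at 40 h against 3 at 26 h, which is 6 of the 18 arrays of a time series. The other times were 22, 30, 34 and 46 h, with 3 arrays each. The 2 times were chosen by the measured levels of the period (Per) genes, as near opposite phases. Per2 and Per3 stood near their highest level at 26 h and near their lowest at 40 h, while Per1 differed by -0.01. The levels of the clock genes therefore describe that choice and are given with no test. The other genes were tested on all 18 arrays. Every culture, at both times, had been exposed to 100 nM dexamethasone for 2 h, and no untreated culture was analysed here. The cells were C57BL/6 fibroblasts taken at embryonic day 13 from 2 mice, and the labels describe those on these arrays as wild type siblings from a mating that also gave Bmal1-/- cells. The labels call the 3 samples of a time biological replicates but do not tie them to a mouse or a culture, so the p-values below measure the spread between these samples, which may be technical. With 14 h between the sampling times, the phase of the clock and the time in culture cannot be told apart.

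In the mammalian circadian clock, the activators CLOCK and BMAL1 (the product of Arntl) bind E-box elements and switch on their own repressors, the period (Per) and cryptochrome (Cry) genes. PER and CRY proteins then shut the activators down until they decay. The same activators drive the nuclear receptors REV-ERB alpha and beta (Nr1d1 and Nr1d2), which repress Arntl, and the factors DBP, TEF and HLF, which act through D-box elements. Fibroblasts in a dish each keep such a clock, and dexamethasone, a synthetic glucocorticoid, brings these clocks to a common phase.

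After quantile normalization, 19938 genes with a probe set of 1 gene symbol were measured on the scale of log2(intensity + 16), on which all levels and differences below are given. Array medians before normalization lay from 196 to 210, with 197.3 to 199.8 at 26 h and 203.8 to 209 at 40 h. Lower quartiles were 81.07 to 83.17 at 26 h and 88.7 to 90.58 at 40 h. Upper quartiles were 688.2 to 707.6 and 655.5 to 679.6. The arrays thus differed in scale between the times, and quantile normalization evens out such a difference. Precision is limited by having 3 arrays per time. The 12 measured fibroblast markers had a median level of 12.28, against 8.07 over all genes, and the medians of the 7 marker lists of other cell types lay from 6.63 to 8.18. In this comparison 2 fibroblast markers rose and none fell, and each of the other marker lists had 1 or 2 called genes. These lists held 7 to 9 measured genes each, and over all genes 12% were called. With the values as deposited 3618 of all 19938 genes were called higher, and with arrays centred 1994. More markers were called as deposited, with 5 macrophage, 5 epithelial, 4 skeletal muscle, 3 bone and cartilage and 3 endothelial genes higher. With arrays centred 4 macrophage genes were higher. The keratin gene Krt19 of epithelium fell by 0.65, the one call of these lists that was kept when any 1 array was left out, and the part of other cell types in the results below was not tested. Within times, 33.8% of the variance lay along 1 component, on which replicate 2 stood on the negative side at both 26 h (-7.99) and 40 h (-12.07), with the other 4 arrays on the positive side. The values of a time cancel out, so the signs of its arrays are linked. At 22 h and 46 h replicate 2 stood on the positive side (12.66 and 9.62). Results are therefore also given without single arrays and without both arrays numbered 2 at 26 h and 40 h.

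Among the clock repressors, Per3 had the widest gap between the times. It read 8.82, 8.41 and 8.92 at 26 h and 7.19, 7.43 and 7.03 at 40 h, a difference of -1.50 ± 0.14 (SE, n = 3 arrays per time). All 40 h arrays lay below all 26 h arrays. Per2 read 7.99, 7.80 and 8.07 at 26 h and 7.11, 7.31 and 7.19 at 40 h, a difference of -0.75 ± 0.07, again with no overlap. Per1, the period gene that hormones and serum also induce, did not share this gap: its arrays read 9.31, 9.16 and 9.25 at 26 h and 9.37, 9.0 and 9.33 at 40 h. The gap between the times thus held for Per2 and Per3 and not for Per1.

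Both cryptochromes read lower at 40 h. Cry2 stood at 8.10, 7.86 and 8.07 at 26 h and at 7.44, 7.41 and 7.39 at 40 h, a difference of -0.60 ± 0.06. Cry1 stood at 8.43, 8.40 and 8.33 against 8.06, 8.02 and 8.03, a difference of -0.35 ± 0.05. The arrays of the times did not overlap for either gene. The helix-loop-helix repressors Bhlhe40 and Bhlhe41, which compete with the activators at E-boxes, differed by -0.49 ± 0.10 and -0.37 ± 0.06. Bhlhe41 varied little between arrays, with SDs of 0.03 at 26 h and 0.02 at 40 h. Ciart, a repressor of the activator pair, differed by -0.46 ± 0.15 from its brighter probe set and by -0.36 as the mean over its probe sets.

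The REV-ERB genes differed from each other. Nr1d1 read 9.49, 8.91 and 9.57 at 26 h and 9.84, 9.49 and 9.80 at 40 h, so it was the 1 repressor of 10 with a positive difference (0.39 ± 0.16), and its arrays overlapped. Without replicate 2 at 26 h, its lowest array, the difference was 0.18. Nr1d2 read 10.43, 10.17 and 10.55 against 9.93, 10.08 and 9.78, a difference of -0.46 ± 0.14 with no overlap. At 26 h the mean of Nr1d1 (9.33) had already left its level at 22 h (10.45), and at 40 h it lay between 34 h (9.08) and 46 h (10.10). For Nr1d1, then, 26 h and 40 h lie on the way down and on the way up, not at its extremes.

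The D-box activators Dbp and Tef also read lower at 40 h. Dbp stood at 9.82, 9.51 and 9.98 at 26 h and at 8.80, 8.66 and 8.68 at 40 h, a difference of -1.06 ± 0.11. Tef stood at 9.78, 9.49 and 9.83 against 9.05, 8.93 and 8.91, a difference of -0.74 ± 0.09. Neither overlapped between times. Hlf, the third member of this family, differed by -0.13 ± 0.07, and Nfil3, which represses at the same elements, by -0.12 ± 0.07. Replicate 2 at 26 h was the lowest of its time for Per2, Per3, Cry2, Dbp and Tef.

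Differences among the activators were smaller. Arntl read 9.19, 9.57 and 9.12 at 26 h and 9.60, 9.72 and 9.58 at 40 h, a difference of 0.34 ± 0.10 in the direction opposite to the period genes. The highest array of 26 h, replicate 2, lay next to the lowest of 40 h. The differences of Clock (0.04 ± 0.06), Rora (0.09 ± 0.05) and Rorb (-0.03 ± 0.07) were smaller, and the sign of each turned with the scaling. With arrays centred on their medians Clock stood at -0.06 and Rora at -0.01, and with the values as deposited Rorb stood at 0.07. Arntl2, a paralog of Arntl, differed by -0.18 ± 0.06.

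**Figure D1:**
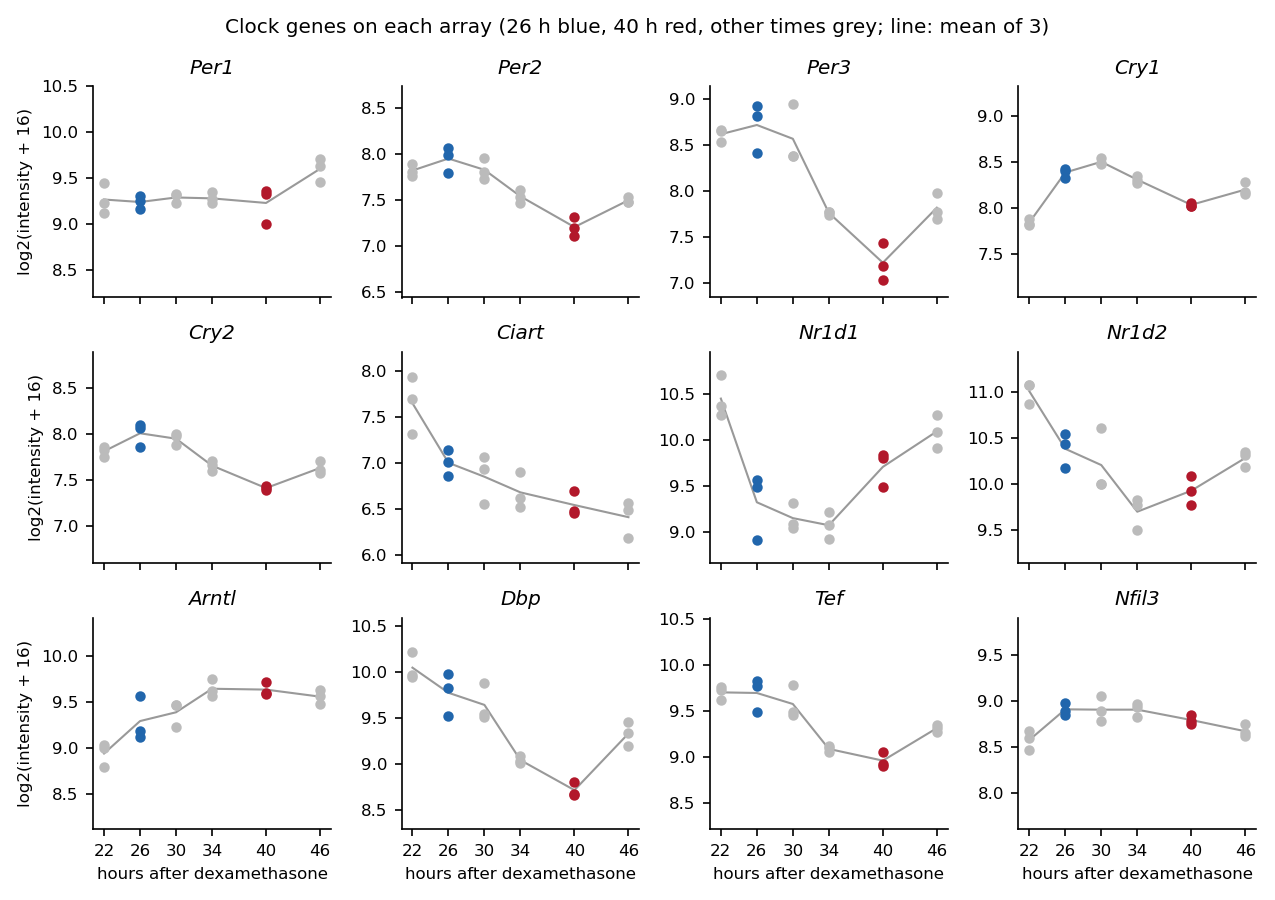
Level of 12 clock genes, log2(intensity + 16), on each of 3 arrays at 6 times in hours after dexamethasone; blue points are 26 h, red points 40 h, grey points the other times, and the line joins the means. Each panel spans the same log2 range; Per3, Dbp and Tef have no overlap between the blue and red points, while those of Per1 and Nr1d1 overlap.

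The letters before these genes' start sites are shown because the clock factors act through short elements there. Stretches are from RefSeq on GRCm38.p6, end at the base before the annotated start and run 5′ to 3′ along the gene. Capitals mark the E-box CACGTG or the D-box TTATGTAA.
Per3, chr4:151044666-151044890, minus strand: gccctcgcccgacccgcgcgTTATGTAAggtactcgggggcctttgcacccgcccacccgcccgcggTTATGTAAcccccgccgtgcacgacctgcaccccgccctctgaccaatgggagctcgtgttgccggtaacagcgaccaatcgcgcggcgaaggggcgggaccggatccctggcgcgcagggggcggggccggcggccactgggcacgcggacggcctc
Ciart, chr3:95882229-95882364, minus strand: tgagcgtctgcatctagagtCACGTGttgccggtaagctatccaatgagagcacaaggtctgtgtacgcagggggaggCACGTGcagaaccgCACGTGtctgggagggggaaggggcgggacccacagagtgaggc
Cry1, chr10:85185055-85185134, minus strand: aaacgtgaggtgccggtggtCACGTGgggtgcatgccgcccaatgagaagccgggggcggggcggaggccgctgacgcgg
Tef, chr15:81802526-81802672, plus strand: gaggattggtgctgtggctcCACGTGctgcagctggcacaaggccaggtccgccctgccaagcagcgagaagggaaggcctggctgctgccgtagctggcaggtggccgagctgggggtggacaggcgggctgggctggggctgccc
Counted from the start site, Per3 has 2 D-boxes, at -205 and -158, and Ciart has 3 E-boxes, at -116, -58 and -44. Cry1 and Tef have 1 E-box each, at -60 and -127, the latter counted from 1 of the 2 starts listed for Tef. In the 250 bases before the start, on either strand, 5 of 17 clock genes with an entry had an E-box (29.4%), against 8.11% of 15614 measured genes with an entry. Of the repressors alone it was 4 of 8, since Per2 and Bhlhe40 had no entry and were not searched. The repressors with an E-box that are not shown here were Bhlhe41 and, from 1 of its starts, Per1. Per1 had no gap between the times. No E-box was found for Per3, Cry2, Nr1d2 or Dbp, which read lower at 40 h. A D-box was found for 1 of the 17 and for 0.897% of all. Among genes called higher and lower at 40 h, 7.81% and 8.63% had an E-box, and 1.18% and 0.795% a D-box. These shares lie near those of all genes. A match is a run of letters in this window and does not show binding.

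Over all genes, 2387 of 19938 (12%) differed between 40 h and 26 h at an adjusted p under 0.05 (limma, Benjamini-Hochberg), 1242 higher (6.23%) and 1145 lower (5.74%) at 40 h. Differences were mostly small, with medians of 0.27 among the rises and -0.29 among the falls. Many genes named below were picked by this same comparison, so a lack of overlap between their arrays is a description only. No rise reached 2-fold, and of the 4 falls that did, 2 were the clock genes Per3 and Dbp and 2 the small RNA genes Rnu5g and Rny1. The number called moved with single arrays, from 832 without replicate 3 at 40 h (276 higher) to 3323 without replicate 2 at 40 h. It was 1964 without both arrays numbered 2. Without replicate 2 at 26 h it was 1205, without replicate 3 at 26 h 1023 and without replicate 1 at 40 h 978. A total of 605 genes (3.03%) were called in each of the 6 fits that left out 1 array, 185 higher and 420 lower. The balance of rises and falls also moved with the scaling: 52% of calls were rises after quantile normalization, 66.4% with the values as deposited (5451 calls) and 35.8% with arrays centred on their medians (5576 calls). The median difference of all genes was 0.02, but it was 0.07 and 0.09 in the lower quartile groups of mean level and -0.04 and -0.02 in the upper ones. For 81.5% of the called genes the means at 30 h and 34 h lay between those at 26 h and 40 h, against 34.6% of all genes, given as a description.

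**Figure D2:**
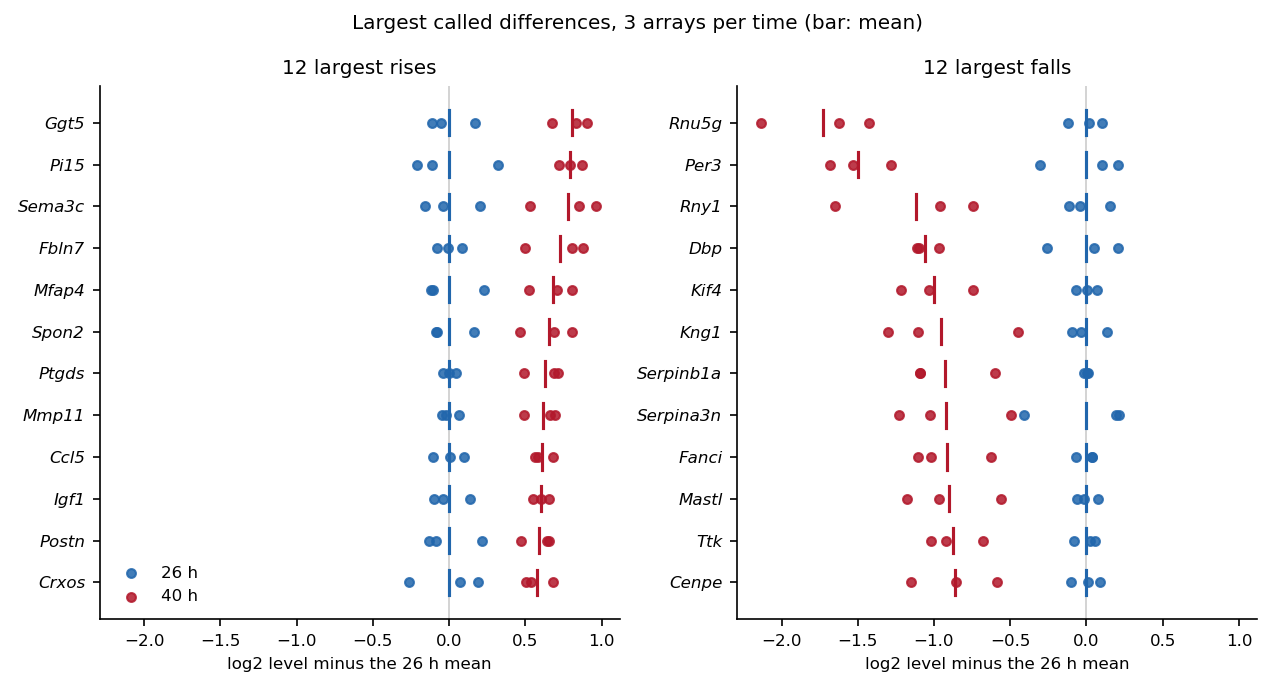
Log2 level of each array relative to the 26 h mean (horizontal axis) for the 12 largest called rises and the 12 largest called falls; blue points are the 3 arrays at 26 h, red points the 3 at 40 h, and bars their means. Among the falls Rnu5g and Per3 lie farthest to the left, and for Serpina3n 1 array at 26 h lies close to the nearest array at 40 h.

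Of the 41 gene lists examined, that of G2 phase and mitosis had the largest share of falls. Of its 28 measured genes, 27 fell and none rose, with a list median of -0.69, or 1.61-fold, against 0.02 for all genes. The share of all genes that fell was 5.74%. Every one of the 27 calls was kept in the 6 fits without 1 array, and the count was 27 with both other scalings and without both arrays numbered 2. The exception was Cdk1, the kinase that starts mitosis, at -0.27 ± 0.12 (adjusted p = 0.165).

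Kif4, a motor protein of mitotic chromosomes that the list did not hold, had the largest fall of any protein gene outside the clock. Its arrays read 8.32, 8.25 and 8.39 at 26 h and 7.10, 7.58 and 7.29 at 40 h, a difference of -1.0 ± 0.10 (adjusted p = 3.2e-05, limma). Aspm, which focuses spindle poles, read 9.10, 8.95 and 9.13 against 8.17, 8.27 and 8.17 (-0.86 ± 0.08). Times did not overlap for either gene. The spindle genes Tpx2 (-0.74 ± 0.07) and Prc1 (-0.80 ± 0.08) and the phosphatase gene Cdc25c (-0.82 ± 0.08), which activates the mitotic kinase, also fell with an adjusted p of 3.2e-05. The list's largest falls were those of Ttk (-0.87 ± 0.10), a spindle checkpoint kinase, and Cenpe (-0.86 ± 0.11), a kinetochore motor. Outside the list, Mastl, a kinase of mitotic entry, fell by 0.90, and Fanci, a DNA crosslink repair gene, by 0.92. In these genes replicate 2 was the highest of the 40 h arrays, yet still below all arrays of 26 h.

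DNA replication genes fell less and less firmly. The G1/S and replication list had 29 measured members, of which 21 fell and none rose, with a median of -0.36, but 8 of the calls were kept in all 6 fits without 1 array, where the list's count ranged from 8 to 20. It was 8 without replicate 1 at 40 h, 13 without replicate 3 at 40 h and 12 without replicate 3 at 26 h. Pole, the catalytic subunit of a replicative polymerase, read 9.04, 8.86 and 9.03 at 26 h and 8.15, 8.32 and 8.27 at 40 h (-0.73 ± 0.10, adjusted p = 0.000275, limma). Exo1, a nuclease of mismatch repair, fell by 0.71, Mcm10 by 0.64 and the helicase subunit gene Mcm7 by 0.37. All 4 were among the calls kept. Of 12 D-type cyclins, CDK inhibitors and pocket proteins, 1 fell, against 5.74% of all genes. It was the pocket protein gene Rbl1 (-0.44 ± 0.12). Its call was lost without replicate 2 or 3 at 26 h or replicate 1 or 3 at 40 h.

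**Figure D3:**
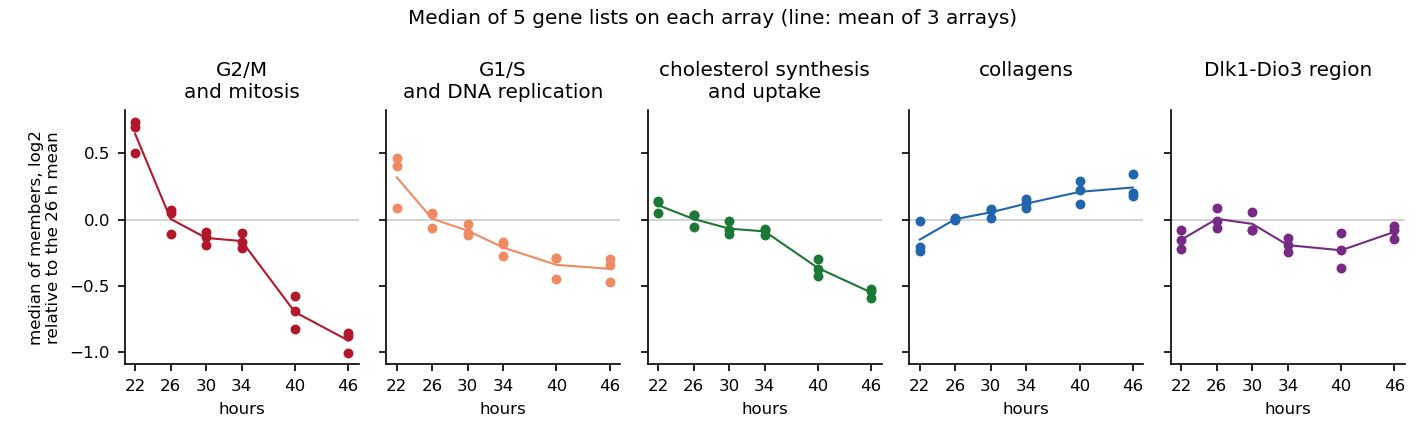
Median over the members of 5 gene lists on each array, log2 relative to each gene's 26 h mean (vertical axis), at 6 times in hours; points are arrays and lines join the means of 3. The G2/M list stands at -0.70 at 40 h and the cholesterol list at -0.36, while the collagen list stands at 0.21.

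The lists moved at different times. Set against 26 h, the G2/M list had medians of -0.14 ± 0.05 at 30 h and -0.16 ± 0.06 at 34 h (mean ± SD of 3 arrays), and then -0.70 ± 0.12 at 40 h. Most of its gap between 26 h and 40 h thus lay between 34 h and 40 h. The G1/S list had reached -0.21 ± 0.06 by 34 h, against -0.34 ± 0.09 at 40 h. Cholesterol genes, at -0.09 ± 0.02 by 34 h, had most of their fall after it (-0.36 ± 0.06 at 40 h). Collagen genes went from 0.12 ± 0.03 to 0.21 ± 0.09 over the same hours.

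The stretches before 2 mitotic genes and 1 cholesterol gene are shown because many genes of these lists were called lower and many of their promoters hold CCAAT. Capitals mark CCAAT or its form on the other strand, which reads ATTGG, in Cdc20 also the CHR element TTTGAA, and in Hmgcs1 a run of the form TCACNCCAC, an element of the sterol factor SREBP.
Cdc20, chr4:118437344-118437416, minus strand: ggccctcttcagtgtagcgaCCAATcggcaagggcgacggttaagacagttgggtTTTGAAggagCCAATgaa
Hmmr, chr11:40733438-40733629, minus strand: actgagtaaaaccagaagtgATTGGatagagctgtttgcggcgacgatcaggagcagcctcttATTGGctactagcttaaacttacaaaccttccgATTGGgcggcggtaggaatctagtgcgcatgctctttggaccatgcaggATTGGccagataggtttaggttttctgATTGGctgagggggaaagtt
Hmgcs1, chr13:119690101-119690350, plus strand: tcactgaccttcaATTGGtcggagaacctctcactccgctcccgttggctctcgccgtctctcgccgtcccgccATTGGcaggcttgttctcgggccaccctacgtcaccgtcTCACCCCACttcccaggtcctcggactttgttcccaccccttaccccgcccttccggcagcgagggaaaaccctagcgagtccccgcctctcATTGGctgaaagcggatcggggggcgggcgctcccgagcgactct
Cdc20, an activator of the ligase that ends mitosis, has CCAAT at -53 and -8 and TTTGAA at -18, and the spindle gene Hmmr has 5 CCAAT runs between -172 and -20. Hmgcs1, whose enzyme makes the substrate of the rate-limiting reductase of cholesterol synthesis, has 3 CCAAT runs and TCACCCCAC at -137. Of 23 G2/M genes with an entry 21 had CCAAT in the 250 bases before the start (91.3%), against 38.8% of all measured genes with an entry, and 8 had TTTGAA (34.8% against 15.7%). CCAAT was also found for all 14 cholesterol genes with an entry and for 17 of 23 G1/S genes, but likewise for 16 of 17 genes of the unfolded protein response, none of which fell. Among all genes called lower at 40 h, 46.3% had CCAAT, against 35.1% of those called higher. TCACNCCAC was found for 1 of the 14 cholesterol genes, which is Hmgcs1, and for 1.2% of all. The searched letters were those given here, on both strands, and none of these runs overlaps another in the stretches shown.

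Genes of cholesterol synthesis were mostly lower at 40 h, where 5.74% of all genes were called lower. Of 18 measured genes of synthesis and uptake 14 fell and none rose, with a median of -0.38 (1.3-fold), and 11 of the calls were kept in all 6 fits without 1 array. Lss, which closes the sterol rings, read 9.52, 9.33 and 9.59 at 26 h and 8.89, 8.92 and 8.93 at 40 h (-0.57 ± 0.06, adjusted p = 7.34e-05, limma). The times did not overlap. Insig1, which holds the sterol sensor in the endoplasmic reticulum, fell by 0.46, and the synthesis enzymes Fdps and Fdft1 by 0.44 and 0.40. Genes along the pathway that also kept their calls were Hmgcs1 (-0.34 ± 0.06), Sqle (-0.48 ± 0.10), Cyp51 (-0.54 ± 0.11) and Nsdhl (-0.40 ± 0.07), with the transcription factor gene Srebf2 (-0.36 ± 0.07). Idi1 had the largest fall of the list (-0.77 ± 0.21) and the least firm one. Its 40 h arrays read 7.60, 8.68 and 8.27, and its call was kept in 1 of the 6 fits, that without replicate 2 at 40 h. Ebp, Mvd, Mvk and Sc5d did not pass, with differences from -0.15 to -0.04.

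Of 14 fatty acid synthesis genes 6 fell, against 5.74% of all genes, with a median of -0.15, and 2 calls were kept in all 6 fits. These were the acetyl-CoA synthetase gene Acss2, which read 8.55, 8.38 and 8.43 at 26 h and 8.01, 8.0 and 8.10 at 40 h (-0.42 ± 0.07, adjusted p = 0.00112, limma), and the elongase gene Elovl6 (-0.26 ± 0.06).

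The 12 largest rises, all under 2-fold, came from genes of several roles. Ggt5, an enzyme that cleaves glutathione conjugates and leukotrienes, read 7.56, 7.78 and 7.50 at 26 h and 8.52, 8.29 and 8.45 at 40 h (0.81 ± 0.10, adjusted p = 0.000174, limma). Pi15, a secreted protease inhibitor, rose by 0.79 ± 0.13, the guidance factor Sema3c by 0.78 ± 0.14 and the matrix protein fibulin 7 (Fbln7) by 0.73 ± 0.11. Next came the microfibril protein Mfap4 (0.68), Spon2 (0.65), the prostaglandin D synthase Ptgds (0.63), the matrix protease Mmp11 (0.62), the chemokine Ccl5 (0.61), the growth factor Igf1 (0.60), periostin, Postn (0.59), and the homeobox gene Crxos (0.58 ± 0.15). The call of Crxos was lost without replicate 3 at 26 h or replicate 1 or 3 at 40 h, and the other 11 calls were kept in all 6 fits without 1 array. In 9 of the 12, all but Ptgds, Ccl5 and Crxos, replicate 2 was the highest array of 26 h. Times did not overlap in any of the 12, which were picked for their difference here, so this adds no support.

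Most genes of the matrix lists did not pass, and their counts stand against 6.23% higher and 5.74% lower among all genes. Of 18 collagen genes 8 rose and none fell, with a median of 0.19, but the count ranged from 2 to 9 over the fits without 1 array. It was 2 without replicate 1 or replicate 3 at 40 h, 3 without replicate 2 or replicate 3 at 26 h and 5 without replicate 1 at 26 h. Col6a3 (0.32 ± 0.06, adjusted p = 0.00219, limma) and Col11a1 (0.33 ± 0.06) kept their calls in all 6. The major fibrillar collagen genes Col1a1 (0.17 ± 0.07, adjusted p = 0.136) and Col1a2 (0.03 ± 0.06, adjusted p = 0.781) did not pass. Among 23 matricellular and proteoglycan genes 7 rose, 3 fell and 13 did not pass, with a median of 0.05 (-0.03 with arrays centred on their medians). Thbs2 rose by 0.48 ± 0.10, and Ltbp2, which binds fibrillin, fell by 0.47 ± 0.08. Of 20 matrix proteases and inhibitors 6 rose and 1 fell (8 and 3 with the values as deposited, 5 and 4 with arrays centred), with the plasminogen activator Plau up (0.42 ± 0.07) and Adamtsl3 down (-0.71 ± 0.10). All of these 4 named calls were kept in all 6 fits.

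Of 19 contractile and smooth muscle genes 6 rose and none fell (9 and 1 as deposited, 4 and 1 centred). Among all genes 6.23% rose and 5.74% fell. The myosin kinase gene Mylk read 9.52, 9.76 and 9.62 at 26 h and 10.29, 10.09 and 10.16 at 40 h (0.55 ± 0.08, adjusted p = 0.000775, limma), and the light chain gene Myl9 rose by 0.56 ± 0.10. The other 4 calls were each lost without replicate 3 at 40 h. Acta2, the actin of smooth muscle and myofibroblasts, did not pass (0.14 ± 0.06, adjusted p = 0.118). Of 23 targets of YAP and TGF-beta signalling 3 rose and 4 fell (3 and 5 as deposited, 3 and 8 centred), a mixed count beside those shares of all genes. Bmp4 (0.46 ± 0.08) and Ccn1 (0.41 ± 0.08) rose and the TGF-beta inhibitor Smad7 (-0.26 ± 0.05) fell, and these calls were kept.

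A cluster of microRNA genes at the imprinted Dlk1-Dio3 region of chromosome 12 was lower at 40 h. Its microRNAs are cut from long maternal transcripts, and a seed, bases 2 to 8 of the mature strand, is the part that pairs with target messages. The probe sets are named for microRNA genes, and labelling copied total RNA with random primers, so mature, hairpin and host transcripts were not separated. Of 28 measured genes of the region 12 fell and none rose, with a median of -0.30, and all 12 were microRNA genes, out of 23 measured. The shares over all genes were 5.74% lower and 6.23% higher. RefSeq mature strands (GRCm38.p6) follow with the seed in capitals. They are those of the 5 genes whose calls were kept in all 6 fits without 1 array, and of the Mir376 genes except miR-376a-5p.
miR-136-5p: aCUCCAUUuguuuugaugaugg
miR-136-3p: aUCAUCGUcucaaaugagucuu
miR-154-5p: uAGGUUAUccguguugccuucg
miR-154-3p: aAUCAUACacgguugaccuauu
miR-381-5p: aGCGAGGUugcccuuuguauauu
miR-381-3p: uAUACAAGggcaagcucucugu
miR-496a-5p: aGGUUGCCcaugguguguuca
miR-496a-3p: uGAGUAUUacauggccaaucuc
miR-543-5p: aAGUUGCCcgcguguuuuucg
miR-543-3p: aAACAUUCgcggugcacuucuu
miR-376a-3p: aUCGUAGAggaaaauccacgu
miR-376b-3p: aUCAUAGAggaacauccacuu
miR-376b-5p: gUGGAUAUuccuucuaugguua
miR-376c-5p: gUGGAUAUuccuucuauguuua
Among the 22 mature strands of the 12 called genes that the table held, 1 pair shared a seed, UGGAUAU of miR-376b-5p and miR-376c-5p. The other strands had seeds of their own, so the called genes are neighbours on the chromosome and not 1 seed family.

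Mir496a had the smallest adjusted p of the region. It read 7.55, 7.48 and 7.49 at 26 h and 7.19, 7.08 and 7.12 at 40 h (-0.38 ± 0.06, adjusted p = 0.000673, limma). Mir381 read 6.44, 6.42 and 6.59 against 6.02, 6.04 and 6.05 (-0.45 ± 0.08). Neither overlapped between times. Levels in the region were low, with a median of 7.59 (range 5.67 to 12.34) against 8.07 over all genes. The 40 h readings of Mir381 lay below the 0.1 quantile of all genes (6.15), so its fall was read near the floor. Mir543 fell by 0.43, Mir154 by 0.51 and Mir136 by 0.42. The other 7 calls were each lost without 1 or more arrays, and the region's count ranged from 6 to 11 over the fits without 1 array and was 9 without both arrays numbered 2. It was 10 with the values as deposited and 15 with arrays centred on their medians, with no rises under either.

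Not all genes of the region moved. In order along the chromosome, the called genes were Mir136, then the run of 7 neighbours from Mir543 to Mir487b, then Mir154, Mir496a, Mir541 and Mir409. Between the run and Mir154 lay Mir382, Mir134 and Mir485, with differences from -0.01 to 0.02, none of them called. Other microRNA genes were not called although some read as low as called ones. Before the run, Mir379, Mir411, Mir380 and Mir494 differed by -0.33, -0.35, -0.37 and -0.16. Mir377, between Mir496a and Mir541, differed by -0.13. Mir665, Mir431 and Mir127 differed by 0.26, -0.06 and -0.00. The protein gene Dlk1 (-0.01 ± 0.06) and the long noncoding RNA gene Meg3 (0.02 ± 0.09) did not pass, nor did Rian (-0.20 ± 0.10), Rtl1 (-0.00 ± 0.06) and Dio3 (0.09 ± 0.09). Set against 26 h, the region's median was -0.19 ± 0.05 by 34 h and -0.23 ± 0.13 at 40 h (mean ± SD of 3 arrays). At the other times it was -0.15 ± 0.07 (22 h), -0.03 ± 0.08 (30 h) and -0.09 ± 0.05 (46 h), so it was below 26 h at 22 h as well. In the comparison of 46 h with 22 h, none of the 28 genes fell and 3 rose, against 9.73% lower and 11.5% higher among all genes. Mir543 and Mir376b were also called in the test of the difference between those comparisons, and both of these calls were kept in 2 of the 12 fits without 1 of the arrays involved.

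**Figure D4:**
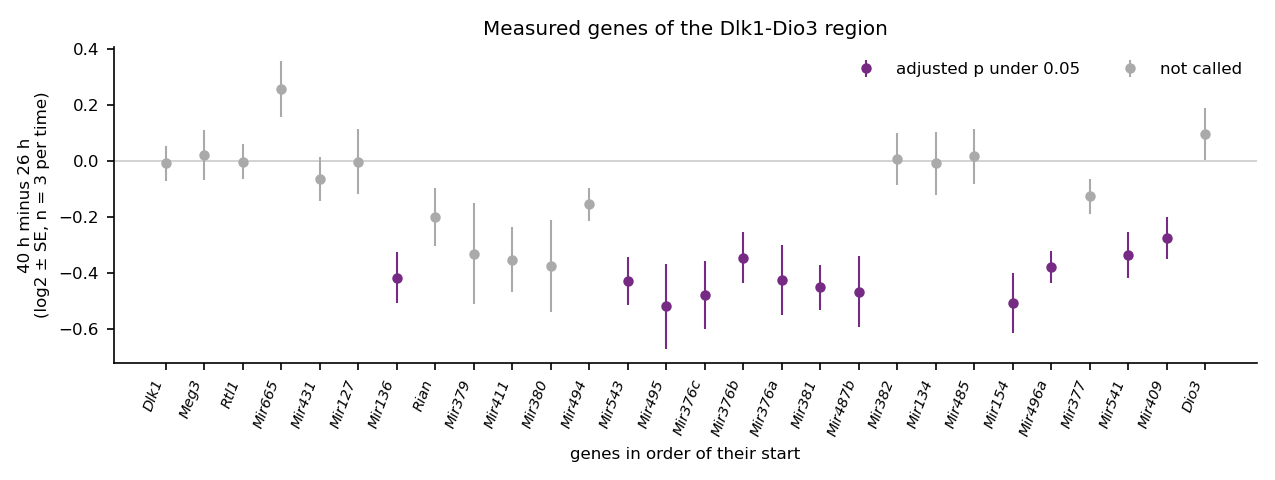
Difference between 40 h and 26 h (log2 ± SE, vertical axis) for the 28 measured genes of the Dlk1-Dio3 region in order of their start; purple points passed the test and grey points did not. A run of 7 purple points from Mir543 to Mir487b is followed by 3 grey points near 0.

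Other small RNA genes gave the largest fall of all. Rnu5g, a gene of the U5 spliceosomal RNA, read 8.85, 8.94 and 8.71 at 26 h and 7.41, 7.21 and 6.70 at 40 h (-1.73 ± 0.27, adjusted p = 0.000959, limma). The Y RNA gene Rny1 read 8.17, 8.37 and 8.10 against 7.47, 7.26 and 6.57 (-1.12 ± 0.25), and this call was lost without replicate 3 at 40 h. Snora21 fell by 0.84 and Snord118 by 0.71, both kept in all 6 fits. Of 27 measured small nucleolar, spliceosomal and related RNAs 8 fell and none rose, with a median of -0.17. This count stands against 5.74% lower and 6.23% higher among all genes. Rpph1 (0.09 ± 0.08) and Rmrp (-0.29 ± 0.22), the RNA parts of the ribonucleases P and MRP, did not pass. For Rnu5g, Rny1 and Snora21 the drop came between 30 h and 34 h: the means of Rnu5g were 8.41 at 30 h, 6.65 at 34 h and 7.10 at 40 h, those of Rny1 7.73, 6.75 and 7.10, and those of Snora21 9.87, 8.74 and 9.08. These genes are short, and where near-identical copies exist the probe sets may not tell them apart.

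Among genes known to follow the clock in many tissues, 5 of 15 were lower and none higher at 40 h, against 5.74% and 6.23% of all genes. Since the times were picked for the period genes, this count is no independent support. Wee1, a kinase that holds back mitosis, differed by -0.58 ± 0.10, the membrane protein gene Tspan4 by -0.40 ± 0.09 and the ubiquitin protease gene Usp2 by -0.25 ± 0.06. None of 7 kinases and ligases that act on clock proteins passed.

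Over 5 lists of stress and signalling genes, most counts moved with single arrays or with the scaling. Among all genes 12% were called, 6.23% higher and 5.74% lower. The shares called in the immediate early and glucocorticoid lists lay near that of all genes. Of 25 NRF2 and glutathione genes 5 fell and none rose, and the quinone reductase gene Nqo1 (-0.55 ± 0.07, adjusted p = 0.000278, limma) and Gclc (-0.29 ± 0.06), the rate-limiting enzyme of glutathione synthesis, kept their calls in all 6 fits. Of 20 genes of the unfolded protein response 5 rose and none fell, 0 of them kept in all 6. The count was 2 with arrays centred on their medians and 1 without both arrays numbered 2. Of 22 glycolysis and hypoxia genes 6 fell and 1 rose, with 0 kept (10 and 1 as deposited, 14 and 1 centred). Of 26 immediate early genes 3 rose and none fell, Fos, Btg2 and Ier3, by 0.24 to 0.27, with 0 kept. The balance of the list's calls turned with the scaling, with 3 higher and 3 lower as deposited and 1 higher and 6 lower with arrays centred. Of 20 genes that glucocorticoids induce 1 rose and 1 fell, against 6 and 2 with the values as deposited, 5 and 2 with arrays centred, and 5 and 1 without replicate 2 at 40 h. Hif3a, a hypoxia-inducible factor subunit gene, rose by 0.49 ± 0.09 (adjusted p = 0.00323, limma), and Tsc22d3 fell by 0.21, a call kept in 1 of 6 fits. The exposure to dexamethasone had the same length for both times.

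No gene of the interferon (19 genes), ribosomal protein (18) or proteasome (26) lists was called, and 1 of 30 respiratory chain genes was. With the values as deposited 1 interferon gene was called higher, and with arrays centred 1 proteasome gene lower. Each list stands against 12% of all genes called. The ATF4, p53, heat shock and Kruppel-like factor lists had 1 or 2 calls each, with none kept in all 6 fits. Of 26 Hox genes Hoxa2 fell (-0.23 ± 0.05) and Hoxa11 rose (0.25 ± 0.07, lost without replicate 2 or 3 at 26 h or replicate 1 or 3 at 40 h).

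Of 27 chemokine, cytokine and acute phase genes 2 rose and 5 fell (5 and 6 as deposited, 3 and 7 centred). Here and for the list below, the shares over all genes were 6.23% higher and 5.74% lower. The chemokine gene Ccl5 read 8.71, 8.59 and 8.80 at 26 h and 9.26, 9.38 and 9.28 at 40 h (0.61 ± 0.09, adjusted p = 0.000531, limma). The prostaglandin F receptor gene Ptgfr fell by 0.41. Serpina3n, an acute phase protease inhibitor, read 10.92, 10.32 and 10.95 against 9.50, 10.23 and 9.70 (-0.92 ± 0.22). This call was lost without replicate 3 at 26 h or replicate 1 or 3 at 40 h, and the nearest arrays of both times were the replicates numbered 2. Serpinb1a, an inhibitor of neutrophil proteases, fell by 0.93, and Kng1, the gene of the kinin precursor kininogen, by 0.95, both kept in all 6 fits. Of 25 growth factor and guidance genes 4 rose and 5 fell (5 and 5 as deposited, 4 and 8 centred). Igf1 and Sema3c were the 2 of these calls kept in all 6 fits.

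The arrays of 46 h and 22 h, which share none with this comparison and lie 24 h apart, show which of these differences were also present over a full day. They gave 4234 called genes (21.2%), 2295 higher (11.5%) and 1939 lower (9.73%) at 46 h. Of the calls of 40 h against 26 h, 1357 (56.8%) were called there in the same direction, which is 32.1% of the calls of 46 h against 22 h, and 10 in the opposite direction. The difference between the comparisons, tested in the same fit, was called for 303 genes (1.52%), 166 above 0 (0.833%) and 137 below (0.687%). That count was 154, 636 and 143 without replicate 1, 2 and 3 at 22 h, 146 without replicate 2 at 26 h, 185 and 197 without replicate 2 and 3 at 40 h, and 165 without replicate 3 at 46 h. It was 103 without both arrays numbered 2 at 26 h and 40 h. A total of 132 genes were called in all 12 fits without 1 array.

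Mitotic genes fell further from 22 h to 46 h. Of the 28 G2/M genes 26 were called above 0, with a list median of -1.57 for 46 h against 22 h and of -0.69 for 40 h against 26 h. Hmmr, a spindle protein, differed by -0.79 ± 0.09 and -1.90 ± 0.09 in the 2 comparisons, and Cdc20 by -0.56 ± 0.10 and -1.65 ± 0.10. Pimreg, Nek2, Kif2c, Cdkn3 and Aspm followed the same order, with differences between the comparisons from 1.05 to 1.12. Among genes with rises, Postn (0.59 against 1.65), Igf1 (0.60 against 1.65), Pi15 (0.79 against 1.80) and Thbs2 (0.48 against 1.48) changed less from 26 h to 40 h. The aldehyde dehydrogenase genes Aldh1a1 (-0.14 ± 0.15, adjusted p = 0.563, limma) and Aldh1a7 (0.11 ± 0.10, adjusted p = 0.499) did not pass between 26 h and 40 h and rose by 1.09 and 1.16 from 22 h to 46 h. These near-identical paralogs may share signal. The cholesterol genes Insig1 and Fdft1 were called as well, with 46 h against 22 h at -0.93 and -0.86.

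A small set of genes changed from 26 h to 40 h beyond, or against, their change over the full day. These 23 genes, 16 lower and 7 higher at 40 h, were singled out after their values were seen. Ccl5 had the widest gap: it rose by 0.61 here and fell by 0.73 from 22 h to 46 h (difference 1.34 ± 0.13, adjusted p = 5.0e-05, limma), and its means were 8.69 at 34 h, 9.31 at 40 h and 7.98 at 46 h. The 9 others called in opposite directions were Cry1, Usp2, Rapgefl1, Jam2, Grin2a, Gabre, Lonrf1, Fbxo44 and Ldoc1. Of these, the first 2 are clock or clock-output genes, for which the choice of times makes the call a description: Cry1 differed by -0.35 here and by 0.36 from 22 h to 46 h, and Usp2 by -0.25 and 0.23. Cry1 did not stand for the clock genes as a set. The median of the 10 clock repressors was -0.46 here and -0.34 from 22 h to 46 h. That of the 4 D-box factors was -0.43 and -0.15. Gabre, a subunit gene of the GABA-A receptor, fell by 0.29 and rose by 0.19. The others were close to the threshold in this comparison (limma, adjusted p from 0.0239 for Grin2a to 0.0494 for Lonrf1), and each lost its call in at least 4 of the 6 fits without 1 array. Acss2 (-0.42 ± 0.07 here, 0.03 ± 0.07 from 22 h to 46 h) and the Wnt enhancer gene Rspo3 (-0.38 ± 0.08 and 0.13 ± 0.08) fell here and did not pass over the full day. The difference was called in all 12 fits without 1 array for Ccl5 and Gabre, in 7 for Acss2 and in 3 for Rspo3.

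**Figure D5:**
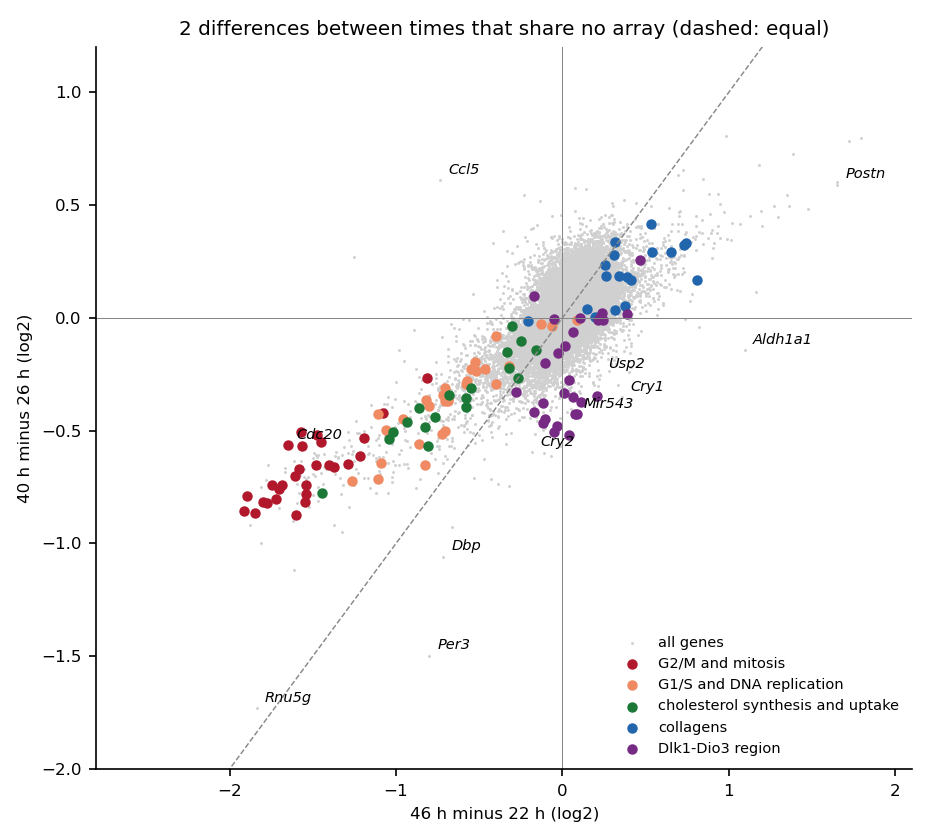
Difference of 40 h and 26 h (vertical axis, log2) against that of 46 h and 22 h (horizontal axis, log2) for 19938 genes in grey, with 5 gene lists in colour; the dashed line marks equal differences. The G2/M genes lie at lower left above the dashed line, the 12 called Dlk1-Dio3 genes below 0 near the middle, and Ccl5 at upper left.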

How the data were processed

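Total RNA was labelled by random priming and hybridised to whole-transcript Affymetrix arrays, and the deposited values are linear probe set intensities made by the authors with Affymetrix Expression Console 1.1 and PLIER 2.0, per the submitters' processing notes. The table held 35556 probe sets on 18 arrays. The platform annotation listed 23410 of them, 21789 with 1 symbol and 1621 with several, and 12146 are unnamed here. Of those with 1 symbol, 21698 matched RefSeq (GRCm38.p6) by gene identifier and 0 symbols changed. The brightest probe set stood for each of the 999 genes with several, leaving 19938 genes.

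From these intensities log2(intensity + 16) was taken and quantile normalized. Before that, the quartiles of the arrays lay within 0.154 and 0.11 of each other (log2). limma 3.58.1 (R 4.3.3) fitted the means of the 6 times on all 18 arrays, and contrasts were adjusted by Benjamini-Hochberg over all genes at 0.05. Standard errors are limma's. The fit was tested on simulated data.

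The members and the 41 gene lists were chosen with earlier results of these data known. Named genes were all measured clock genes, the 12 largest called rises and falls, the 8 largest called differences against 46 h minus 22 h in each direction, and, from each list, the called members with the lowest p, 4 at most. Unnamed gene models, pseudogenes and chemosensory receptors were passed over. Other genes named, with the 23 that changed beyond the full day, were taken as members of these lists or after their values were seen. Motifs were searched with Python 3.11.15, and pandas 2.3.3 and matplotlib 3.10.9 drew the plots. The alternatives were other scalings, constants, filters, probe set rules, variance models, a replicate block and leaving out arrays.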

Additional observations from a re-analysis of the deposited data

How the results depend on the processing

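The number of genes called between 40 h and 26 h (2387) was 5451 with the values as deposited, 5576 with arrays centred on their medians, 1368 among genes above the median level, 753 in a fit of only the 6 arrays (4664 at an unadjusted p under 0.05) and 645 at a threshold of 0.01. It ranged from 832 to 3323 over the fits that left out 1 array. The other planned settings gave 1917 to 3170 calls, and leaving out both arrays numbered 2, chosen after seeing the data, gave 1964. The number called for the difference against 46 h and 22 h (303) was 464 among genes above the median level, 1424 with array weights, 112 at a threshold of 0.01 and 103 without both arrays numbered 2. It ranged from 143 to 636 over the fits without 1 array. The replicate number as a block gave 1917 and 194 calls. Samples of the same number deviated with correlations of 0.07, 0.45 and -0.15 for numbers 1, 2 and 3, so the numbers were not taken as pairs. Of the 150 named genes compared over settings, 6 lost their call under the block, 52 in the fit of only the 6 arrays, and from 6 to 50 in the fits without 1 array. Col10a1, at -0.04 and not called, stood at 0.072 without replicate 2 at 26 h and at 0.091 without both arrays numbered 2. Crybg1, at 0.26, stood at -0.17 as the mean over its probe sets. The causes were not tested.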
